A study of Mus musculus with 12 samples.

Results

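Genes of mitosis and chromosome segregation were compared in pre-selection CD4+CD8+ double positive (DP) thymocytes with normal or mutant Bcl11b. The set holds 54 genes of 23234 features in the deposited table, taken by symbol for their roles in mitotic entry, the spindle checkpoint, kinetochores, spindle motors, cytokinesis and chromosome condensation. All 54 were listed, and all 54 averaged 1 FPKM or more over the 12 libraries. FPKM are fragments counted on a gene, scaled to its transcript length and to the library's size.

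RNA-seq was done on thymocytes of C57BL/6 mice that the sample labels call CD24hi TCRβlo pre-selection DP cells. The extraction text of the same labels describes the sort of another population, DN NKT cells, after depletion of DP cells. There were 5 libraries from wild-type newborns and 3 from Bcl11bm/m newborns, homozygous in the germline for a hypomorphic allele in which a frameshift removes the last zinc finger of the protein. Bcl11bm/m mice die as neonates. In Bcl11bfl/fl:Cd4-Cre mice (4 libraries) a Cre transgene under Cd4 control deletes the floxed gene at the DP stage. Their age is not given by the labels, so that for them age and genotype cannot be told apart. Genotypes were taken from the sample titles, which the sample descriptions contradict in the wild-type group and in Bcl11bfl/fl:Cd4-Cre mice.

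Mitosis is driven by cyclin B bound to the kinase Cdk1. Chromosomes are condensed by condensin and topoisomerase II, attached to spindle microtubules through kinetochores built on centromeres that contain Cenpa, and held until the spindle checkpoint releases the anaphase-promoting complex (APC/C), which degrades cyclin B and lets the chromatids part. Transcripts of these genes are made mainly in G2 and mitosis and are scarce in resting cells. In the thymus, cells divide rapidly after β-selection, through the immature single positive stage and as DP blasts, and then become small resting DP cells that await positive selection.

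The targeted gene was measured over its whole length on chromosome 12 from 109148613 to 109241812 (NCBIM37), without separating exons or alleles, so that it does not check the deletion. Bcl11b was at 132, 286, 292, 158 and 223 FPKM (wild-type replicates 1 to 5), 429.9, 434 and 482 FPKM (Bcl11bm/m replicates 1 to 3) and 127, 139.9, 136 and 115 FPKM (Bcl11bfl/fl:Cd4-Cre replicates 1 to 4). Bcl11bm/m libraries were above all others, and the Bcl11bfl/fl:Cd4-Cre libraries lay among or below the lower wild-type ones. Its log2 difference from wild-type was 1.10 in Bcl11bm/m (adjusted p = 0.0279 by limma) and -0.68 in Bcl11bfl/fl:Cd4-Cre thymocytes (adjusted p = 0.0828). Zbtb7b, which encodes ThPOK, a transcription factor of the CD4 T cell lineage, was chosen after its values were seen. Its levels were 0, 0.0463, 0.215, 0 and 0.0471 FPKM (wild-type replicates 1 to 5), 50.4, 46.5 and 41.1 FPKM (Bcl11bm/m replicates 1 to 3) and 33.1, 9.44, 56.6 and 23.8 FPKM (Bcl11bfl/fl:Cd4-Cre replicates 1 to 4). Libraries titled wild-type were below all others, also below those titled Bcl11bm/m, whose descriptions name the same genotype, while the mutants overlapped each other. Estimated depth was 3690000 to 6420000 fragments in wild-type, 2510000 to 3890000 in Bcl11bm/m while it was 10060000 to 42050000 for Bcl11bfl/fl:Cd4-Cre libraries, so that depth differs between the groups. The fewest fragments estimated for a member in a library were 4.73, for Cenpk in Bcl11bm/m replicate 1. Against this text, the 10 markers fixed for pre-selection DP thymocytes, Cd4 and Cd8a among them, were all at a mean of 1 FPKM or more in each group, with summed levels of 5098 to 6802 FPKM in wild-type, 3760 to 4284 FPKM in Bcl11bm/m and 3531 to 5602 FPKM in Bcl11bfl/fl:Cd4-Cre libraries. Of these 10 markers 6 fell against wild-type in Bcl11bm/m thymocytes (adjusted p under 0.05 by limma, median log2 difference -0.72), where 7.39% of all features fell. Just 1 of the 10 fell in Bcl11bfl/fl:Cd4-Cre thymocytes (median -0.48), where 9.86% of all features did.

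The promoters of late cell cycle genes are known for the CHR (cell cycle genes homology region), an element bound by MuvB complexes, and for CCAAT boxes bound by NF-Y. The sequences below are shown because these elements are shared by most of the set. RefSeq promoter windows on GRCm38.p6, from 250 bases before to 50 after the start, were held for 45 of the 54 genes (50 windows). TTTGAA or TTCGAA, the CHR letters, occurred on either strand in 36 of these 50 windows (72.0%), against 19.2% of 32851 windows of all genes and 14% of the windows of genes that passed the filter of 1 FPKM here. CCAAT was present on either strand in 78.0% of the windows of mitosis genes and in 37.4% of all windows. A window with at least 1 match of each kind made up 64.0% against 7.52%. Of 94 windows of the wider list of mitosis genes described below, 48.9% held the CHR letters, 58.5% CCAAT and 33.0% both. For 44 windows of DNA replication genes these shares were 22.7%, 54.5% and 11.4%. The E2F letters TTTCCCGC, TTTGGCGC, TTTCGCGC or TTTGCCGC, on either strand, were found in 6.0% of the mitosis windows, 31.8% of 44 windows of DNA replication genes, 4.28% of windows of genes that passed the filter and 2.26% of all windows. No motif searched contains another, and a match is a description of letters only.

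The CHR match lay close to the transcription start. Of 49 matches in mitosis promoters, 34 (69.4%) began within 50 bases of the start, with a median position of -15, against 25.2% and a median of -125 over all windows (positions count from the start, +1, with no 0). The windows printed run from 150 bases before to 30 bases after the start, 5′ to 3′ in the direction of the gene, for the first 6 genes of the anchor order that hold a whole CHR there. They are Cdk1 at chr10:69352883-69353062 on the minus strand, Bub1 at chr2:127831830-127832009 on the minus strand, Cdc20 at chr4:118437314-118437493 on the minus strand, Cenpa at chr5:30666736-30666915 on the plus strand, Kif11 at chr19:37376232-37376411 on the plus strand and Prc1 at chr7:80294301-80294480 on the plus strand, all on GRCm38.p6. Capitals mark CHR and CCAAT matches on either strand.
Cdk1: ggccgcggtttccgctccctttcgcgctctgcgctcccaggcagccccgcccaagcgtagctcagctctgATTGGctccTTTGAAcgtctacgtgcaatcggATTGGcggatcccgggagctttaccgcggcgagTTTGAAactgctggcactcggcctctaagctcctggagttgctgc
Bub1: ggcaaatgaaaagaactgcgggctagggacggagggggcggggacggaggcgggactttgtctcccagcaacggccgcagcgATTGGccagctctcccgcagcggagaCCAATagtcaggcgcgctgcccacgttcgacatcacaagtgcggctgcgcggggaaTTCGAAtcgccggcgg
Cdc20: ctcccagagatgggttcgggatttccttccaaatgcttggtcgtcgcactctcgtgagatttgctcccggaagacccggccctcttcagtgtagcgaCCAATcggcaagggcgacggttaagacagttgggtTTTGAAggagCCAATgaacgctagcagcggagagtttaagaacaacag
Cenpa: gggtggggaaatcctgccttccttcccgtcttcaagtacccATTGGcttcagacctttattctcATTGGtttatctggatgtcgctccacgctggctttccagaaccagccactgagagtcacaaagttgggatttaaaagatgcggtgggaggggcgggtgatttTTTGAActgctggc
Kif11: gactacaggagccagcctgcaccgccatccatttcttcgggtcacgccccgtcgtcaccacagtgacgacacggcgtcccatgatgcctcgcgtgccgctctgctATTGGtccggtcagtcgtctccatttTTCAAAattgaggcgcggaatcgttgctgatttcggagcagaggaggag
Prc1: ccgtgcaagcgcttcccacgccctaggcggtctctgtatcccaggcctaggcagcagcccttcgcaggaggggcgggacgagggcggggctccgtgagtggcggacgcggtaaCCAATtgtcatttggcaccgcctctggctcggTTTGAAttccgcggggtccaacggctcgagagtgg
In Cdk1, the CHR began at -71 and -15 and CCAAT, read as ATTGG on this strand, at -80 and -48. In Cdc20 the CHR at -18 lay between CCAAT boxes at -53 and -8. Bub1 and Cenpa carried the CHR after the start, at 15 and 17. Kif11 had the reverse form TTCAAA at -19, and Prc1 had TTTGAA at -5.

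Differences between libraries were tested with limma on log2(FPKM + 1), and a gene is said to have risen or fallen where the adjusted p was under 0.05 over the 10780 features tested. In Bcl11bm/m thymocytes 39 of the 54 mitosis genes fell and 2 rose against wild-type, and 13 did not pass the test. Over all features tested 7.39% fell and 9.92% rose. The median log2 difference of the set was -1.10, against -0.02 for all features, and 52 of the 54 differences were below 0. In 39 genes every Bcl11bm/m library lay below every wild-type library, against 10.8% of features, and in 2 they all lay above, against 14.6%. The 39 separated genes were not quite the 39 that fell, since Ccnb2, Cdk1 and Cdc20 fell with 1 library overlapping, and Melk, Bub3 and Spc24 were separated without passing. In bulk RNA, fewer dividing cells and less of these transcripts per dividing cell cannot be told apart.

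The count of genes that fell in Bcl11bm/m thymocytes depended on single libraries. It was 13 without Bcl11bm/m replicate 1, 8 without replicate 2, and 20 or 23 when replicate 2 or 5 of the wild-type was omitted. It was 22 without the filter on low values and 21 with all 3 groups in a single fit. In the main fit 47 genes were lower at an unadjusted p under 0.05, as were 1540 of the 10780 features tested. The median difference stayed between -1.41 and -0.79 when any 1 library was left out. Among the genes named here, Ccnb1, Plk1, Spc25, Kif2c and Mad2l1 fell and Cdc25b and Smc4 rose in each of the 8 fits without 1 library. Aurkb, Birc5, Cdca3 and Prc1 missed the threshold without replicate 1 or replicate 2 of Bcl11bm/m, with the highest adjusted p at 0.0772 by limma. Ndc80, Kif11 and Ccna2 missed it without replicate 2 alone, with the highest at 0.0649. Cdk1, Cdc20, Cenpa, Top2a, Ube2c and Nuf2 missed it in 3 to 7 of the 8 fits, with the highest at 0.143.

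In Bcl11bfl/fl:Cd4-Cre thymocytes the decrease took in nearly the whole set. 52 of the 54 genes fell, 1 rose, and 1 did not pass the test, while over all features 9.86% fell and 4.65% rose. The median log2 difference was -1.83, against -0.09 for all features. In 48 genes every Bcl11bfl/fl:Cd4-Cre library lay below every wild-type library, against 10.6% of features, and in 1 (Cdc25b) they all lay above, against 5.44%. 17 genes were lower by more than 2 on the log2 scale in Bcl11bfl/fl:Cd4-Cre thymocytes and none (0) in Bcl11bm/m thymocytes, while 51 and 38 were lower by more than 1. The count of genes that fell lay between 46 and 52 when any 1 library was left out. Both mutants were set against the same 5 wild-type libraries, so that the comparisons are not independent.

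**Figure D1:**
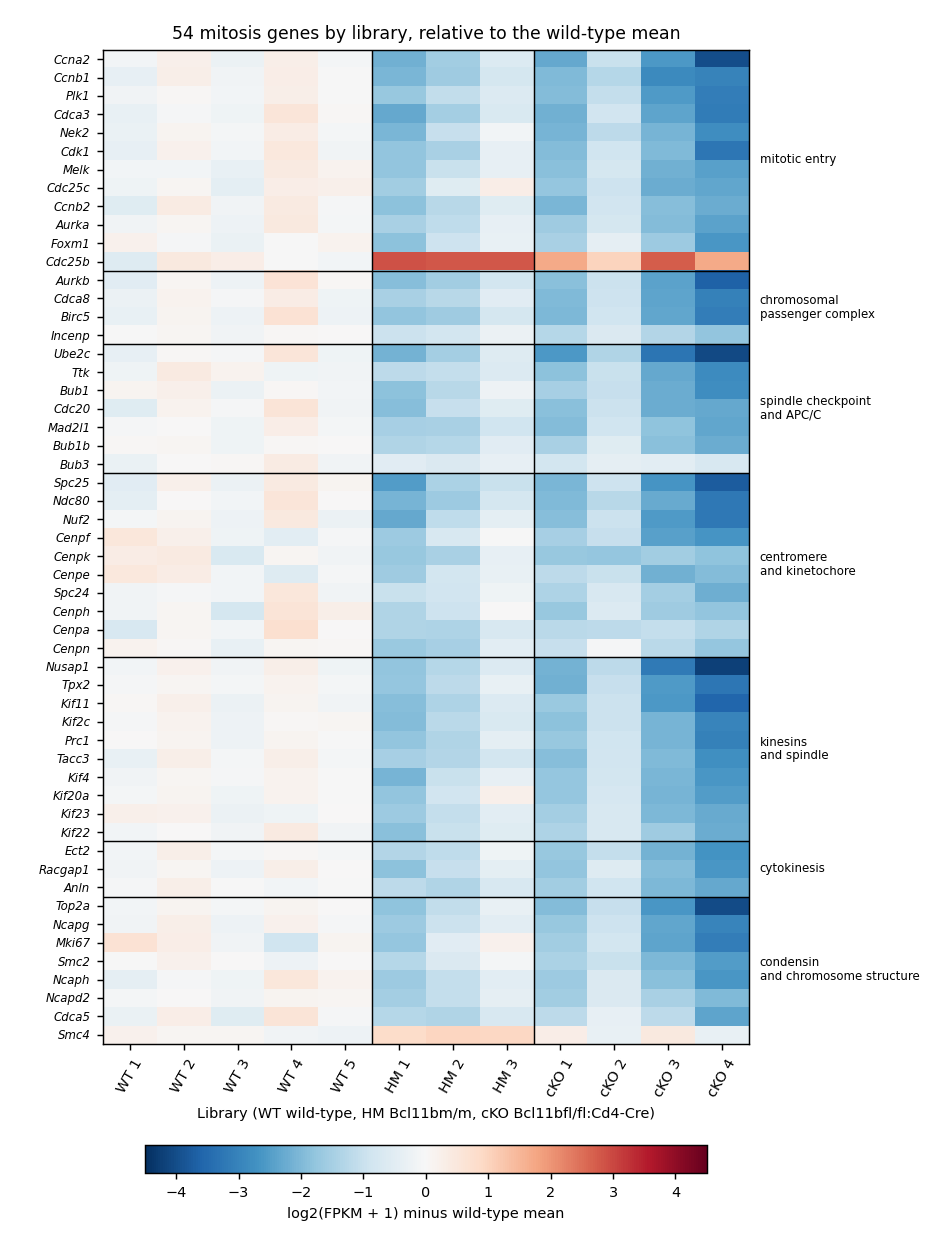
Each row is a mitosis gene, grouped by role, and each column a library, and colour gives log2(FPKM + 1) minus the wild-type mean of that gene. Most rows are blue in Bcl11bm/m (HM) and Bcl11bfl/fl:Cd4-Cre (cKO) libraries, Cdc25b is not in either, Smc4 is not in Bcl11bm/m and is mixed in Bcl11bfl/fl:Cd4-Cre libraries, and Bcl11bm/m replicate 1 and Bcl11bfl/fl:Cd4-Cre replicate 4 are the darkest columns of their groups.

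Of 12 genes of mitotic entry, 8 fell and 1 rose in Bcl11bm/m thymocytes, and 11 fell and 1 rose in Bcl11bfl/fl:Cd4-Cre thymocytes. Beside this role and those below, 7.39% of all features fell and 9.92% rose in Bcl11bm/m, and 9.86% and 4.65% in Bcl11bfl/fl:Cd4-Cre thymocytes. Ccnb1, the cyclin B1 that activates Cdk1, lies on chromosome 13 from 101548605 to 101556525 (NCBIM37, as all positions of genes here). Ccnb1 was at 25.1, 39.3, 28.7, 39.8 and 31.9 FPKM (wild-type replicates 1 to 5), 7.09, 9.97 and 18.2 FPKM (Bcl11bm/m replicates 1 to 3) and 7.37, 12.9, 3.55 and 3.20 FPKM (Bcl11bfl/fl:Cd4-Cre replicates 1 to 4). All 7 mutant libraries were below all wild-type libraries. The mean of Ccnb1 was 2.803-fold lower in Bcl11bm/m (log2 difference -1.49, standard error 0.28, adjusted p = 0.00852 by limma) and 4.88-fold lower in Bcl11bfl/fl:Cd4-Cre thymocytes (log2 difference -2.28, standard error 0.33, adjusted p = 0.00437 by limma). Cdk1, on chromosome 10 from 68799383 to 68815686, is the kinase that triggers mitosis. It was at 18.9, 28.3, 22.5, 34.6 and 22.3 FPKM (wild-type replicates 1 to 5), 6.46, 8.30 and 19.0 FPKM (Bcl11bm/m replicates 1 to 3) and 5.70, 12.9, 5.54 and 1.69 FPKM (Bcl11bfl/fl:Cd4-Cre replicates 1 to 4). Bcl11bm/m replicate 3 reached the lowest wild-type library, while the other mutant libraries were below it. Cdk1 differed by -1.21 on the log2 scale in Bcl11bm/m (standard error 0.33, adjusted p = 0.0364 by limma) and by -2.02 in Bcl11bfl/fl:Cd4-Cre thymocytes (standard error 0.39, adjusted p = 0.0101).

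Plk1, the polo-like kinase that promotes mitotic entry and spindle assembly, is on chromosome 7 from 129302951 to 129313389. Its level was 38.9, 45.7, 40.5, 52.6 and 42.8 FPKM (wild-type replicates 1 to 5), 12.6, 19.99 and 28.4 FPKM (Bcl11bm/m replicates 1 to 3) and 10.5, 20.2, 6.74 and 4.19 FPKM (Bcl11bfl/fl:Cd4-Cre replicates 1 to 4). No mutant library reached a wild-type one, and Plk1 was 2.17-fold lower in Bcl11bm/m (adjusted p = 0.0115 by limma) and 4.23-fold lower in Bcl11bfl/fl:Cd4-Cre thymocytes (adjusted p = 0.00517). Ccna2, the cyclin A2 of S phase and G2, fell from a wild-type mean of 80.5 ± 13.1 FPKM (SD, n = 5) to 31.4 ± 17.8 FPKM (SD, n = 3) with the hypomorphic allele and 17.9 ± 15.2 FPKM (SD, n = 4) after Cd4-Cre deletion. Cdca3, a trigger of mitotic entry, fell from 98.5 ± 25.9 FPKM (SD, n = 5) to 36.9 ± 20.6 FPKM (SD, n = 3) and 25.3 ± 18.7 FPKM (SD, n = 4). Ccnb2, Aurka, a spindle pole kinase, and Foxm1, a transcription factor of G2 genes, also fell in both mutants, with log2 differences of -1.20, -0.99 and -1.03 in Bcl11bm/m and -1.76, -1.69 and -1.53 in Bcl11bfl/fl:Cd4-Cre thymocytes. Nek2, a centrosome kinase, and Melk fell in Bcl11bfl/fl:Cd4-Cre thymocytes by 2.04 and 1.82 on the log2 scale, and in Bcl11bm/m thymocytes had differences of -1.06 (adjusted p = 0.0946 by limma) and -1.05 (adjusted p = 0.0511).

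Cdc25b went the other way. It encodes a phosphatase that activates cyclin-dependent kinases by removing inhibitory phosphates, and lies on chromosome 2 from 131012685 to 131024233. Cdc25b was at 27.2, 56.7, 51.3, 40.9 and 37.6 FPKM (wild-type replicates 1 to 5), 309, 293 and 296 FPKM (Bcl11bm/m replicates 1 to 3) and 136, 84.5, 277 and 137 FPKM (Bcl11bfl/fl:Cd4-Cre replicates 1 to 4). Every mutant library was above every wild-type library, and the Bcl11bm/m libraries were close to each other while the Bcl11bfl/fl:Cd4-Cre libraries spread from 84.5 to 277 FPKM. The mean was 7.01-fold higher in Bcl11bm/m (log2 difference 2.82, standard error 0.22, adjusted p = 0.00011 by limma) and 3.71-fold higher in Bcl11bfl/fl:Cd4-Cre thymocytes (log2 difference 1.78, standard error 0.32, adjusted p = 0.00791 by limma). Cdc25c, the related phosphatase, was at 5.46, 6.79, 4.47, 8.14 and 7.57 FPKM (wild-type replicates 1 to 5), 1.47, 4.04 and 8.15 FPKM (Bcl11bm/m replicates 1 to 3) and 1.22, 2.83, 0.556 and 0.4658 FPKM (Bcl11bfl/fl:Cd4-Cre replicates 1 to 4). It fell in Bcl11bfl/fl:Cd4-Cre thymocytes (log2 difference -1.81, adjusted p = 0.00538 by limma), and Bcl11bm/m replicates 1 to 3 ran from below the lowest to the level of the highest wild-type library (log2 difference -0.60, adjusted p = 0.343).

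**Figure D2:**
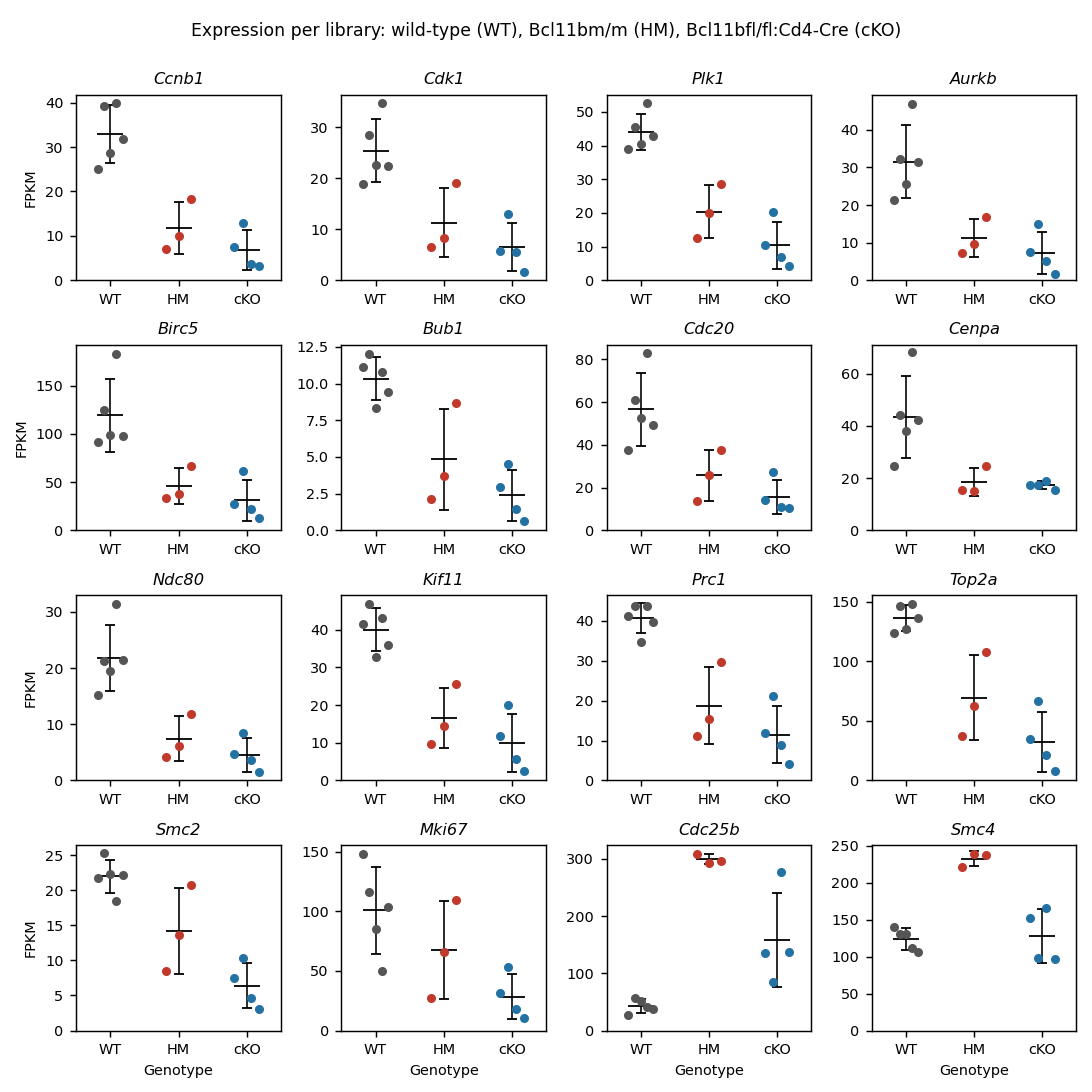
Points are FPKM values of single libraries for the 14 anchor genes, Cdc25b and Smc4, with the group mean (bar) and SD, for wild-type (WT, n = 5), Bcl11bm/m (HM, n = 3) and Bcl11bfl/fl:Cd4-Cre (cKO, n = 4). Mutant libraries lie below the wild-type ones for Ccnb1, Plk1 and Ndc80, overlap them for Mki67 in both mutants, and lie above them for Cdc25b.

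The chromosomal passenger complex, which corrects kinetochore attachments and acts at the midzone in cytokinesis, consists of the kinase Aurkb with Incenp, Birc5 and Cdca8. All 4 genes fell in each mutant, with every mutant library below every wild-type library. Such a separation was seen in 10.8% of all features in Bcl11bm/m and in 10.6% in Bcl11bfl/fl:Cd4-Cre thymocytes. Aurkb, on chromosome 11 from 68859149 to 68865166, was at 21.3, 32.2, 25.6, 47.0 and 31.5 FPKM (wild-type replicates 1 to 5), 7.29, 9.53 and 16.8 FPKM (Bcl11bm/m replicates 1 to 3) and 7.60, 14.9, 4.99 and 1.55 FPKM (Bcl11bfl/fl:Cd4-Cre replicates 1 to 4). Birc5, or survivin, on chromosome 11 from 117710565 to 117717069, was at 92.0, 125, 98.8, 183 and 98.0 FPKM (wild-type replicates 1 to 5), 33.0, 37.3 and 67.0 FPKM (Bcl11bm/m replicates 1 to 3) and 27.4, 61.9, 22.2 and 12.6 FPKM (Bcl11bfl/fl:Cd4-Cre replicates 1 to 4). For both, wild-type replicate 4, Bcl11bm/m replicate 3 and Bcl11bfl/fl:Cd4-Cre replicate 2 were the highest of their groups. Aurkb was 2.81-fold lower in Bcl11bm/m (adjusted p = 0.0135 by limma) and 4.33-fold lower in Bcl11bfl/fl:Cd4-Cre thymocytes (adjusted p = 0.0119), and Birc5 2.61-fold (adjusted p = 0.0135) and 3.85-fold (adjusted p = 0.00877). Cdca8, or borealin, had log2 differences of -1.07 and -2.09. The scaffold Incenp moved least, with -0.68 and -1.26 and a wild-type level of 65.2 ± 4.16 FPKM (SD, n = 5).

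Among 7 genes of the spindle checkpoint and the APC/C, 5 fell in Bcl11bm/m and 7 in Bcl11bfl/fl:Cd4-Cre thymocytes. Bub1, a checkpoint kinase at kinetochores, on chromosome 2 from 127626858 to 127657601, was at 11.2, 12.05, 8.30, 10.8 and 9.43 FPKM (wild-type replicates 1 to 5), 2.12, 3.69 and 8.68 FPKM (Bcl11bm/m replicates 1 to 3) and 2.97, 4.53, 1.42 and 0.606 FPKM (Bcl11bfl/fl:Cd4-Cre replicates 1 to 4). Bcl11bm/m replicate 3 lay within the wild-type range, and Bub1 narrowly missed the threshold in that mutant (log2 difference -1.11, standard error 0.33, adjusted p = 0.0508 by limma, and 0.00517 to 0.17 with 1 library left out) but fell in Bcl11bfl/fl:Cd4-Cre thymocytes (log2 difference -1.89, standard error 0.31, adjusted p = 0.00652 by limma). Cdc20, the APC/C activator that the checkpoint restrains, on chromosome 4 from 118105506 to 118109957, was at 37.4, 60.8, 52.8, 82.9 and 49.1 FPKM (wild-type replicates 1 to 5), 13.6, 25.9 and 37.6 FPKM (Bcl11bm/m replicates 1 to 3) and 14.3, 27.3, 10.9 and 10.2 FPKM (Bcl11bfl/fl:Cd4-Cre replicates 1 to 4). Bcl11bm/m replicate 3 just overlapped wild-type replicate 1, and Cdc20 was 2.20-fold lower in Bcl11bm/m (adjusted p = 0.047 by limma) and 3.61-fold lower in Bcl11bfl/fl:Cd4-Cre thymocytes (adjusted p = 0.00557).

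Ube2c, the ubiquitin-conjugating enzyme of the APC/C, had the highest wild-type mean of the set. It lies on chromosome 2 from 164595398 to 164604322 and was at 144, 194, 178, 272 and 162 FPKM (wild-type replicates 1 to 5), 41.8, 62.9 and 123 FPKM (Bcl11bm/m replicates 1 to 3) and 30.2, 71.5, 18.3 and 10.1 FPKM (Bcl11bfl/fl:Cd4-Cre replicates 1 to 4). Its log2 difference of -2.82 in Bcl11bfl/fl:Cd4-Cre thymocytes (standard error 0.45, adjusted p = 0.00557 by limma), a 5.85-fold lower mean, was the largest decrease in either mutant, and in Bcl11bm/m thymocytes the difference was -1.42 (adjusted p = 0.0229). Mad2l1, the checkpoint protein that binds Cdc20, fell from 44.3 ± 6.13 FPKM (SD, n = 5) to 17.8 ± 4.57 FPKM (SD, n = 3) in the first mutant and 13.4 ± 6.66 FPKM (SD, n = 4) in the second. Bub1b (BubR1) and the kinase Ttk (Mps1) fell in both, with log2 differences of -1.05 and -0.95 in Bcl11bm/m and -1.53 and -1.998 in Bcl11bfl/fl:Cd4-Cre thymocytes. Bub3, a subunit of both checkpoint kinase complexes, had smaller differences of -0.52 (adjusted p = 0.0565 by limma) and -0.61 (adjusted p = 0.0279).

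At the centromere and kinetochore, 5 of 10 genes fell in Bcl11bm/m and 10 in Bcl11bfl/fl:Cd4-Cre thymocytes. Cenpa, the histone H3 variant that marks centromeres, on chromosome 5 from 30969150 to 30977200, was at 24.8, 44.0, 38.0, 68.2 and 42.2 FPKM (wild-type replicates 1 to 5), 15.5, 15.2 and 24.8 FPKM (Bcl11bm/m replicates 1 to 3) and 17.4, 17.5, 19.0 and 15.4 FPKM (Bcl11bfl/fl:Cd4-Cre replicates 1 to 4). Mutant libraries were all below wild-type replicate 1, the lowest of its group, but Bcl11bm/m replicate 3 nearly equalled it (24.78 against 24.84 FPKM). The Bcl11bfl/fl:Cd4-Cre libraries varied little. Cenpa was 2.35-fold lower in Bcl11bm/m (log2 difference -1.15, adjusted p = 0.0323 by limma) and 2.51-fold lower in Bcl11bfl/fl:Cd4-Cre thymocytes (log2 difference -1.21, adjusted p = 0.0101).

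The Ndc80 complex, which holds microtubules at the outer kinetochore, is made of Ndc80, Nuf2, Spc24 and Spc25. Ndc80, on chromosome 17 from 71845440 to 71876197, was at 15.3, 21.3, 19.4, 31.4 and 21.5 FPKM (wild-type replicates 1 to 5), 4.21, 6.12 and 11.9 FPKM (Bcl11bm/m replicates 1 to 3) and 4.63, 8.47, 3.57 and 1.42 FPKM (Bcl11bfl/fl:Cd4-Cre replicates 1 to 4). It was 2.94-fold lower in Bcl11bm/m (adjusted p = 0.0127 by limma) and 4.82-fold lower in Bcl11bfl/fl:Cd4-Cre thymocytes (adjusted p = 0.0055), with no overlap. Spc25, on chromosome 2 from 69031952 to 69044251, was at 25.7, 43.3, 30.5, 49.5 and 39.9 FPKM (wild-type replicates 1 to 5), 5.62, 13.2 and 18.03 FPKM (Bcl11bm/m replicates 1 to 3) and 8.12, 19.0, 5.07 and 1.81 FPKM (Bcl11bfl/fl:Cd4-Cre replicates 1 to 4). It had the largest decrease of the set in Bcl11bm/m thymocytes (log2 difference -1.64, standard error 0.35, adjusted p = 0.0141 by limma), and in Bcl11bfl/fl:Cd4-Cre thymocytes it differed by -2.34 (adjusted p = 0.0114 by limma). Nuf2 fell by 1.30 and 2.17 on the log2 scale. Spc24 fell by 1.46 in Bcl11bfl/fl:Cd4-Cre thymocytes and had a difference of -0.68 in Bcl11bm/m thymocytes (adjusted p = 0.0753 by limma).

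Among the other kinetochore genes Cenpn, which binds centromeric chromatin, fell in Bcl11bm/m (log2 difference -1.21) and in Bcl11bfl/fl:Cd4-Cre thymocytes (-1.01), with Bcl11bfl/fl:Cd4-Cre replicate 2 within the wild-type range. The motor Cenpe, Cenpf, and Cenph and Cenpk of the inner kinetochore fell in Bcl11bfl/fl:Cd4-Cre thymocytes, with log2 differences of -1.58, -1.91, -1.43 and -1.71. In Bcl11bm/m thymocytes their differences were -0.91, -0.79, -0.76 and -1.17, with adjusted p-values of 0.0974, 0.19, 0.218 and 0.0534 by limma.

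Motors and other spindle proteins fell nearly as a whole, 9 of 10 in Bcl11bm/m and 10 of 10 in Bcl11bfl/fl:Cd4-Cre thymocytes. Kif11, the kinesin that pushes spindle poles apart, on chromosome 19 from 37450893 to 37496349, was at 41.5, 46.9, 32.8, 43.0 and 35.9 FPKM (wild-type replicates 1 to 5), 9.78, 14.5 and 25.5 FPKM (Bcl11bm/m replicates 1 to 3) and 11.7, 19.9, 5.71 and 2.40 FPKM (Bcl11bfl/fl:Cd4-Cre replicates 1 to 4). Prc1, which bundles microtubules of the central spindle, on chromosome 7 from 87439336 to 87461145, was at 41.2, 43.7, 34.7, 43.8 and 39.8 FPKM (wild-type replicates 1 to 5), 11.1, 15.4 and 29.6 FPKM (Bcl11bm/m replicates 1 to 3) and 11.9, 21.1, 8.78 and 4.05 FPKM (Bcl11bfl/fl:Cd4-Cre replicates 1 to 4). Neither gene had an overlap between mutant and wild-type libraries. Kif11 was 2.41-fold lower in Bcl11bm/m (adjusted p = 0.0119 by limma) and 4.03-fold lower in Bcl11bfl/fl:Cd4-Cre thymocytes (adjusted p = 0.0106), and Prc1 2.17-fold (adjusted p = 0.0173) and 3.55-fold (adjusted p = 0.00738). Nusap1, a spindle microtubule protein on chromosome 2 from 119444034 to 119476980, ranged down to 2.26 FPKM in Bcl11bfl/fl:Cd4-Cre replicate 4 from a wild-type mean of 59.0 ± 9.23 FPKM (SD, n = 5), with log2 differences of -2.66 in this mutant and -1.23 in Bcl11bm/m thymocytes. Tpx2, the activator of Aurka on the spindle, fell by 1.08 and 2.25, and the microtubule depolymerase Kif2c by 1.30 and 1.97. For Kif4, Kif22, Kif23 and Tacc3 the differences lay between -1.21 (Tacc3) and -1.07 (Kif23) in Bcl11bm/m and between -1.89 (Tacc3) and -1.49 (Kif22) in Bcl11bfl/fl:Cd4-Cre thymocytes. Kif20a did not pass in Bcl11bm/m thymocytes (log2 difference -0.79, adjusted p = 0.195 by limma), where replicate 3 was above all wild-type libraries, and fell by 1.78 in Bcl11bfl/fl:Cd4-Cre thymocytes.

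Cytokinesis genes fell without exception among the 3 listed. Anln, or anillin, an actin-binding scaffold of the contractile ring, fell from 9.32 ± 1.11 FPKM (SD, n = 5) to 3.96 ± 1.14 FPKM (SD, n = 3) and 2.41 ± 1.52 FPKM (SD, n = 4) in the same order of mutants. Ect2, the exchange factor that activates RhoA at the cleavage site, and its partner Racgap1 had log2 differences of -0.89 and -1.10 in Bcl11bm/m and -1.90 and -1.73 in Bcl11bfl/fl:Cd4-Cre thymocytes. For each of the 3 the mutant libraries lay below the wild-type libraries.

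**Figure D3:**
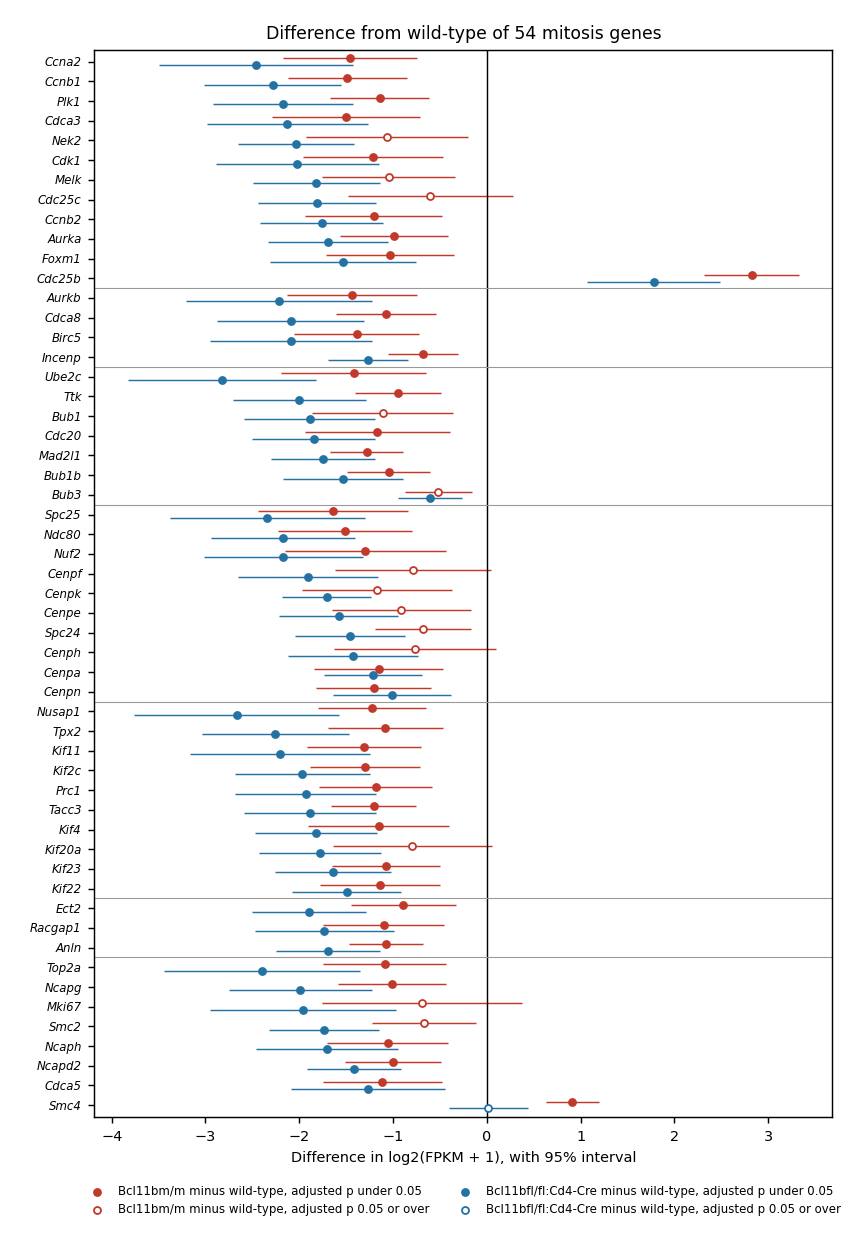
Points are differences in log2(FPKM + 1) from wild-type with 95% intervals from limma for each gene, ordered by role, and filled points have an adjusted p under 0.05. Bcl11bfl/fl:Cd4-Cre points (blue) lie left of Bcl11bm/m points (red) in all genes but Cenpn, and Cdc25b and Smc4 are the genes to the right of 0.

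Of 8 condensin and chromosome structure genes, 5 fell and 1 rose in Bcl11bm/m thymocytes, and 7 fell in Bcl11bfl/fl:Cd4-Cre thymocytes. Top2a, the topoisomerase that untangles sister chromatids, on chromosome 11 from 98854257 to 98885503, was at 124, 146, 127, 148 and 136 FPKM (wild-type replicates 1 to 5), 37.6, 62.1 and 108 FPKM (Bcl11bm/m replicates 1 to 3) and 34.4, 66.3, 21.4 and 7.497 FPKM (Bcl11bfl/fl:Cd4-Cre replicates 1 to 4). Its libraries did not overlap with wild-type in either mutant. Top2a was 1.97-fold lower in Bcl11bm/m (log2 difference -1.09, adjusted p = 0.0331 by limma) and 4.20-fold lower in Bcl11bfl/fl:Cd4-Cre thymocytes (log2 difference -2.40, adjusted p = 0.0106). Mki67, the chromosome surface protein used as a proliferation marker, on chromosome 7 from 142881471 to 142908062, was at 148, 116, 85.5, 50.3 and 104 FPKM (wild-type replicates 1 to 5), 27.5, 66.2 and 109 FPKM (Bcl11bm/m replicates 1 to 3) and 31.7, 53.2, 17.7 and 10.1 FPKM (Bcl11bfl/fl:Cd4-Cre replicates 1 to 4). Here the wild-type libraries themselves spread from 50.3 to 148 FPKM, and mutant libraries overlapped them. Mki67 fell in Bcl11bfl/fl:Cd4-Cre (log2 difference -1.96, standard error 0.44, adjusted p = 0.0186 by limma, and 0.0596 without replicate 3 of this mutant) and did not pass in Bcl11bm/m thymocytes (log2 difference -0.69, 95% interval -1.75 to 0.38, adjusted p = 0.371).

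Smc2 and Smc4, the ATPase subunits that pair in condensin, had differences of opposite sign in Bcl11bm/m thymocytes. Smc2, on chromosome 4 from 52452115 to 52501237, was at 21.7, 25.3, 22.3, 18.5 and 22.1 FPKM (wild-type replicates 1 to 5), 8.49, 13.6 and 20.7 FPKM (Bcl11bm/m replicates 1 to 3) and 7.52, 10.4, 4.68 and 3.03 FPKM (Bcl11bfl/fl:Cd4-Cre replicates 1 to 4). Smc4, on chromosome 3 from 68808660 to 68838545, was at 141, 131, 131, 111 and 106 FPKM (wild-type replicates 1 to 5), 221, 239 and 238 FPKM (Bcl11bm/m replicates 1 to 3) and 153, 97.6, 166 and 96.9 FPKM (Bcl11bfl/fl:Cd4-Cre replicates 1 to 4). Smc2 fell in Bcl11bfl/fl:Cd4-Cre (log2 difference -1.74, standard error 0.26, adjusted p = 0.00479 by limma) and had a difference of -0.67 in Bcl11bm/m thymocytes (adjusted p = 0.102). Smc4 rose 1.88-fold in Bcl11bm/m (log2 difference 0.91, standard error 0.12, adjusted p = 0.00185 by limma), with every library above every wild-type one. In Bcl11bfl/fl:Cd4-Cre thymocytes its difference was 0.02 (95% interval -0.41 to 0.44, adjusted p = 0.965 by limma). The condensin I subunits Ncapd2, Ncapg and Ncaph fell in both mutants, with log2 differences of -0.997, -1.02 and -1.06 in Bcl11bm/m and -1.42, -1.99 and -1.70 in Bcl11bfl/fl:Cd4-Cre thymocytes. Cdca5, or sororin, which protects cohesin, fell by 1.11 and 1.27.

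In the mutants most genes shared the same order of libraries, which held less well in wild-type. Bcl11bm/m replicate 1 was lowest, replicate 2 intermediate and replicate 3 highest in 48 of the 54 genes. In Bcl11bfl/fl:Cd4-Cre thymocytes the order replicate 4, 3, 1, 2 from lowest to highest held in 44 of the 54. Wild-type replicate 4 was highest of its group in 35 genes and lowest in 6, while replicates 1 and 3 were each lowest in 22. The median member was at 28.1, 40.4, 31.7, 43.4 and 35.3 FPKM (wild-type replicates 1 to 5), 9.93, 14.4 and 23.0 FPKM (Bcl11bm/m replicates 1 to 3) and 9.52, 19.4, 6.31 and 3.97 FPKM (Bcl11bfl/fl:Cd4-Cre replicates 1 to 4). The ranges of the mutants thus overlap each other, and neither reaches the wild-type range. The highest library of a group exceeded the lowest by a median of 1.56-fold in wild-type, 2.61-fold in Bcl11bm/m and 4.68-fold in Bcl11bfl/fl:Cd4-Cre thymocytes. Among the genes, Ttk varied most in Bcl11bfl/fl:Cd4-Cre (11.2-fold) and Cenpa least (1.23-fold).

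Markers of other thymocyte stages also differed between these libraries. The 10 markers fixed for double negative (DN) and immature single positive (ISP) thymocytes and other dividing precursors (Il2ra, Kit, Cd44, Il7r, Notch3, Hes1, Erg, Tfrc, Hhex and Lyl1) summed to 16.2 to 24.5 FPKM in wild-type, 95.7 to 223 FPKM in Bcl11bm/m and 37.4 to 81.8 FPKM in Bcl11bfl/fl:Cd4-Cre libraries. Of the 8 that were tested, 7 rose in Bcl11bm/m and 4 in Bcl11bfl/fl:Cd4-Cre thymocytes, against 9.92% and 4.65% of all features, while Erg was at 0 in all Bcl11bm/m libraries. Notch3, the tested marker that did not rise in Bcl11bm/m thymocytes, had a log2 difference of -0.68 there. It was at 5.39 to 9.62 FPKM in wild-type, 3.20 to 5.76 FPKM in Bcl11bm/m and 2.35 to 23.2 FPKM in Bcl11bfl/fl:Cd4-Cre libraries. Of 10 mature thymocyte markers, Il7r again among them, 7 rose and 1 fell in Bcl11bm/m, and 3 rose and 1 fell in Bcl11bfl/fl:Cd4-Cre thymocytes. Mature thymocyte markers summed to 199 to 324 FPKM in wild-type, 419.6 to 702 FPKM in Bcl11bm/m and 175 to 452 FPKM in Bcl11bfl/fl:Cd4-Cre libraries, and myeloid markers to 11.4 to 16.3, 24.4 to 75.9 and 4.30 to 10.2 FPKM, with S100a8 at 0 in all wild-type and Bcl11bm/m libraries. Erythroid markers summed to 7.78 to 45.0 FPKM in wild-type, 11.5 to 31.2 FPKM in Bcl11bm/m and 1.71 to 5.58 FPKM in Bcl11bfl/fl:Cd4-Cre libraries, with Klf1 at 0 in all wild-type and Gata1 at 0 in all Bcl11bm/m libraries. B cell markers summed to 14.6 to 23.6, 9.09 to 37.9 and 12.8 to 29.3 FPKM, with Pax5 at 0 in all wild-type libraries, and thymic stroma markers to 3.55 to 5.41, 1.87 to 3.22 and 1.62 to 2.72 FPKM, with Col3a1 at 0 in every library and Pdgfra at 0 in all wild-type and Bcl11bm/m libraries. Bcl11bm/m replicate 1, whose mitosis genes were lowest of that genotype, had the highest sum of its genotype on each of these lists, at 223 FPKM for DN and ISP, 702 for mature thymocyte, 75.9 for myeloid, 31.2 for erythroid, 37.9 for B cell and 3.22 for stroma markers. Its erythroid sum lay within the wild-type range and its stroma sum below it, while the other sums were above all wild-type libraries. For the pre-selection DP markers its sum was also the highest of its genotype (4284 FPKM, against 3760 and 3856 FPKM in replicates 2 and 3). That sum was below all wild-type libraries. Bcl11bfl/fl:Cd4-Cre replicate 4, with the lowest mitosis genes of its genotype, had the highest DN and ISP sum (81.8 FPKM) and erythroid sum (5.58 FPKM) of that group and its lowest mature thymocyte sum (175 FPKM). The part of any of these cell types in the change of the mitosis genes was not tested.

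**Figure D4:**
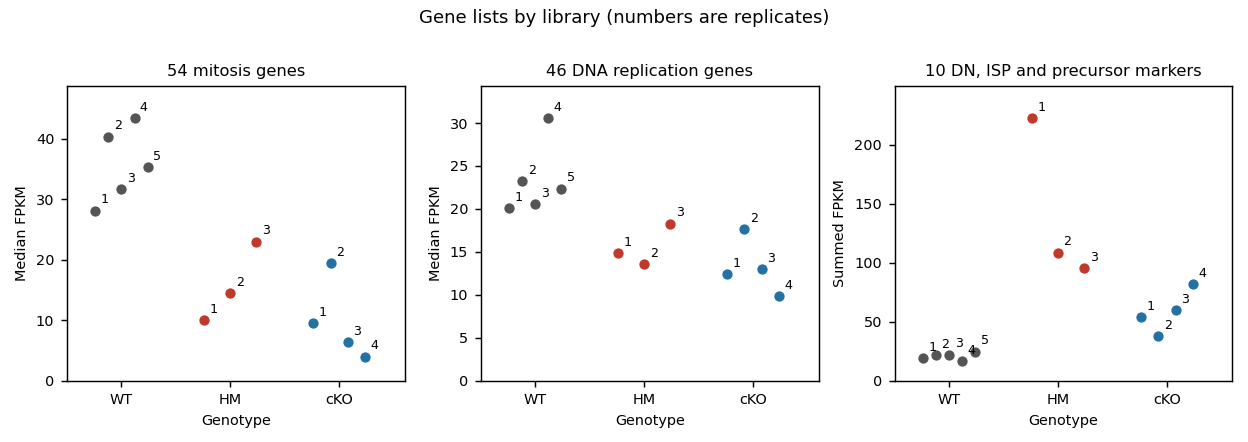
Points are libraries, numbered by replicate, and show the median FPKM of the 54 mitosis genes, the median FPKM of 46 DNA replication genes and the summed FPKM of 10 markers of DN, ISP and other dividing precursors, for wild-type (WT), Bcl11bm/m (HM) and Bcl11bfl/fl:Cd4-Cre (cKO). All mutant libraries lie below the wild-type ones in the first and second panels and above them in the last.

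Wild-type replicates 4 and 1 differed in a way that followed transcript length. The pair was chosen after replicate 4 was seen to stand apart, and the relation was not computed for other wild-type libraries. The 3 longest members were lowest in wild-type replicate 4, where most other members were highest. In wild-type replicates 1 to 5 Cenpe was at 17.4, 15.8, 11.1, 7.85 and 11.8 FPKM and Cenpf at 18.2, 14.8, 10.6, 8.73 and 11.8 FPKM, in an order like that of Mki67 and unlike that of Cenpa or Aurkb. Across the 54 genes, which share these libraries and are not independent, replicate 4 minus replicate 1 had a Spearman correlation of -0.652 with the longest annotated transcript, and -0.587 without the 3 longest (Cenpe, Mki67 and Cenpf). The median of that difference was 0.80 on the log2 scale for the 18 shortest genes, up to 2201 bases, and 0.07 for the 18 longest, from 3567 bases. For the difference from wild-type the correlation was 0.317 in Bcl11bm/m and -0.109 in Bcl11bfl/fl:Cd4-Cre thymocytes, and the 18 shortest and 18 longest genes had medians of -1.17 and -1.02 in Bcl11bm/m and -1.73 and -1.80 in Bcl11bfl/fl:Cd4-Cre thymocytes.

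**Figure D5:**
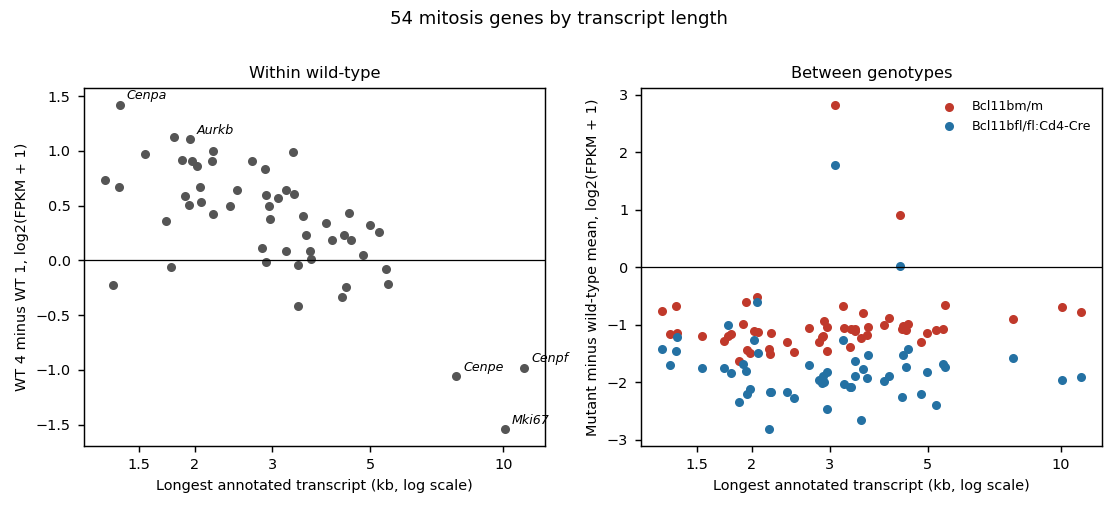
Each point is a mitosis gene plotted against its longest annotated transcript in kilobases (log scale), with wild-type replicate 4 minus replicate 1 on the left and each mutant's difference from wild-type on the right, in log2(FPKM + 1). The left panel falls with length to Cenpe, Cenpf and Mki67, whereas in the right panel both mutants stay below 0 over the whole range except for Cdc25b and Smc4.

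A wider list of 113 other mitosis genes, of which 108 were tested, had smaller median differences than the 54 genes, without a test of that contrast. In Bcl11bm/m thymocytes 39 of them fell and none (0) rose, beside 7.39% and 9.92% of all features, with a median log2 difference of -0.70. In Bcl11bfl/fl:Cd4-Cre thymocytes 82 fell and 1 rose, beside 9.86% and 4.65% of all features, with a median of -1.06. The 5 largest decreases in Bcl11bm/m were E2f8 (-1.59), a repressor of E2F targets, Ccnf (-1.53), Stmn1 (-1.50), a microtubule destabilizer, the cohesin acetyltransferase Esco2 (-1.43) and Cks2 (-1.29), a Cdk1-binding protein. In Bcl11bfl/fl:Cd4-Cre thymocytes they were Fam64a (-2.44), Ckap2l (-2.28), Cep55 (-2.25), which acts in abscission, Shcbp1 (-2.25) and Depdc1a (-2.14), and the gene that rose was the cohesin loader subunit Mau2 (0.31, adjusted p = 0.0494 by limma).

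By complex, the share of these genes that fell varied, beside 7.39% of all features in Bcl11bm/m and 9.86% in Bcl11bfl/fl:Cd4-Cre thymocytes. Of 27 other kinesin and spindle genes, 13 fell in Bcl11bm/m and 23 in Bcl11bfl/fl:Cd4-Cre thymocytes, and of 24 tested kinases, phosphatases and transcription factors of G2 and mitosis, 12 and 22. Other centromere and kinetochore genes fell in 4 and 18 of 23. Of 19 condensin II and cohesin genes 7 and 14 fell, and of 15 APC/C subunits and regulators 3 and 5, with medians for the APC/C of -0.09 and -0.28. Those last medians compare with -0.02 and -0.09 over all features. DNA replication genes, which act in S phase, fell in 23 of 46 in Bcl11bm/m, where 1 rose, and in 33 of 46 in Bcl11bfl/fl:Cd4-Cre thymocytes, with medians of -0.65 and -0.88. No test was made of whether the mitosis genes changed more than the replication genes.

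Genes with and without a CHR match had similar median differences, and no test was made between them. The 33 genes with a match had a median log2 difference of -1.11 in Bcl11bm/m and -1.89 in Bcl11bfl/fl:Cd4-Cre thymocytes, and the 12 with a RefSeq window and no match, Ccnb1, Birc5, Mad2l1 and Nusap1 among them, had -1.19 and -1.85. Cdc25b, which rose, has a CHR match beginning at 8 and a CCAAT match at -28. Windows were not held for Aurkb, Ccna2, Cdc25c, Foxm1, Incenp, Kif20a, Smc4, Spc24 and Tpx2.

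The mutants were also compared directly. Here 1 of the 54 genes was higher with the hypomorphic allele than after Cd4-Cre deletion and none (0) was lower by limma, while 7.63% of all features were higher and 2.6% lower. All hypomorphic libraries lay above all Cd4-Cre libraries in 2 genes, against 18.9% of features, and below them in none (0), against 7.76%. At an unadjusted p under 0.05, 6 genes were higher (Cdc25b, Cdc25c, Ttk, Ect2, Smc2 and Smc4) and 0 lower. Of all 10780 features, 925 were lower at this threshold. The features higher at it were not counted under any setting, so these counts of higher genes have no background to be read against. That count of 6 was 36 without Bcl11bfl/fl:Cd4-Cre replicate 2 and 13 without Bcl11bm/m replicate 1, and 2 or 3 without any other single library. It was 30 with library quality weights and 20 with all 3 groups in a single fit. Other settings lowered it, to 3 without a filter on low values, 3 with median-ratio scaling and 2 with quantile normalization. Differences were above 0 in 53 of 54 genes, with a median of 0.72 against 0.09 over all features, but for 48 genes the 95% interval of the difference included 0, and the intervals had a median width of 2.24 on the log2 scale. The median fell to 0.40 without Bcl11bm/m replicate 3 and to 0.47 without Bcl11bfl/fl:Cd4-Cre replicate 4, and reached 1.03 without replicate 2 of the latter. A p over the threshold here does not show equal levels.

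Smc4 was the gene that passed. Its log2 difference was 0.90 (95% interval 0.39 to 1.40, adjusted p = 0.0438 by limma), with all 3 Bcl11bm/m libraries above all 4 Bcl11bfl/fl:Cd4-Cre libraries, but it missed the threshold in 6 of the 7 fits without 1 library (adjusted p 0.0262 to 0.13), without the filter on low values (0.0704), with a filter of 5 FPKM on the mean (0.052) and with median-ratio scaling (0.0718). For Cdc25b the Bcl11bm/m libraries were also all above the Bcl11bfl/fl:Cd4-Cre ones (log2 difference 1.04, 95% interval 0.22 to 1.87, adjusted p = 0.103 by limma). The largest difference was that of Nusap1 (1.44, 95% interval -0.15 to 3.03, adjusted p = 0.21 by limma), and the smallest was that of Cenpn (-0.20, 95% interval -1.22 to 0.82, adjusted p = 0.797). Cenpa differed by 0.06 (95% interval -0.36 to 0.48), a value that turned to -0.04 with median-ratio scaling and -0.02 with quantile normalization. Among other anchors the differences lay between 0.67 (Ndc80) and 1.31 (Top2a). Of 108 tested genes of the wider list, 3 were higher in Bcl11bm/m thymocytes and 0 lower by limma, beside 7.63% and 2.6% of all features. They were Ckap5 (0.91), Cenpc1 (0.82) and Cdc27 (0.76).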

How the data were processed

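DP thymocytes of 5 wild-type, 3 Bcl11bm/m and 4 Bcl11bfl/fl:Cd4-Cre libraries were sequenced, and the authors deposited FPKM for 23234 features in 12 columns, 1 a library. Their processing notes name TopHat2 2.8.0, Cufflinks 2.1.1 and mm9, and no scaling between libraries is stated in the sources used here. The extraction text of the labels describes a sort of DN NKT cells and another library kit than the study's methods. The library chemistry is therefore uncertain, and the cell type was taken from the sample's source and description and checked on markers. Nothing states that replicates are separate animals, so p-values measure only the spread between these libraries.

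Values were tested as log2(FPKM + 1) with limma 3.58.1 in R 4.3.3 (lmFit, eBayes with trend, two-sided), fitted to the groups compared without scaling or block, over the 10780 features that averaged 1 FPKM or more. P-values were adjusted by Benjamini-Hochberg and called under 0.05. A log2 difference on this scale understates the change of low genes, and fold values are ratios of mean FPKM. The fitting code was tested on simulated data. Depth was estimated from the steps of low FPKM values, of which 57.3% to 65.6% lay within 0.1 of a whole fragment (20% if spread evenly), so that FPKM were not turned into counts.

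Genes named were 14 anchors, up to 12 members that passed in each direction, those with the largest and smallest difference in each comparison, up to 5 of the wider list in each direction and Bcl11b. Other members are given with their role for completeness. Promoters printed were those of the first 6 genes, anchors first, with a whole CHR match in the window, a condition added after the sequences were seen. Gene positions are from GENCODE vM1 on NCBIM37 (mm9), and promoters from RefSeq on GRCm38.p6. The members, gene lists and tests were chosen with earlier results of these data known. Alternatives were a pseudocount of 0.1, no filter or a filter of 5 FPKM, median-ratio scaling, quantile normalization, rescaling without short RNA features, all groups in a single fit, the replicate number as a block, library quality weights, and leaving out each library.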

Additional observations from a re-analysis of the deposited data

Results flagged for a closer look

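Each gene and genotype with 4 or 5 libraries was checked for a single library far from the others by Dixon's criterion, which chance meets in about 1 of 20 groups. Of 108 groups 4 met it, against 5.4 by chance. Bub1b, the checkpoint protein BubR1, was at 37.005 FPKM in wild-type replicate 3, below the other wild-type libraries. Cenpn was at 11.528 FPKM in the same library, again the lowest of its group. Spc24, of the Ndc80 complex, was at 60.512 FPKM in wild-type replicate 4, above the others. Cenph was at 4.215 FPKM in Bcl11bfl/fl:Cd4-Cre replicate 2, the highest of its group, a library in which most mitosis genes were highest.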

How the results depend on the processing

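The decrease of the mitosis genes kept its direction under every alternative, with a median log2 difference of -1.41 to -0.79 in Bcl11bm/m and of -2.15 to -1.60 in Bcl11bfl/fl:Cd4-Cre thymocytes when 1 library was left out. How many genes passed the test depended on the setting in Bcl11bm/m thymocytes. There 39 fell, against 22 without a filter on low values and 21 in a single fit of all groups, and 8 to 46 without 1 library, lowest without Bcl11bm/m replicate 2 and highest without replicate 3. In Bcl11bfl/fl:Cd4-Cre thymocytes 52 fell, against 49 to 52 under the other settings without a block and 46 to 52 without 1 library. Rescaling without short RNA features moved the median of all features from -0.09 to 0.04 in that comparison and the median of the mitosis genes from -1.83 to -1.71. Removing the filter changes the number of features tested (17153 against 10780). For the other settings the cause was not tested.

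In the direct comparison of the mutants 1 gene was higher. The count was 0 without a filter, with a filter of 5 FPKM and with median-ratio scaling, 4 with library quality weights, and 0 to 2 without 1 library. Cenpa changed sign to -0.038 with median-ratio scaling, -0.015 with quantile normalization and -0.161 without Bcl11bm/m replicate 3, within a range of -0.161 to 0.175 over the fits without 1 library. Cenpn changed sign to 0.104 with library quality weights, 0.031 without Bcl11bm/m replicate 1 and 0.119 without Bcl11bfl/fl:Cd4-Cre replicate 2, within a range of -0.568 to 0.119. The cause was not tested.

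Replicate numbers did not pair the libraries. Deviations of libraries with the same number from their group means had correlations of -0.211 to 0.152, over 0.1 in 2 of 10. With the number as a replicate block, 0 genes fell and 1 rose in Bcl11bm/m thymocytes by limma, although 39 were lower at an unadjusted p under 0.05, 36 fell in Bcl11bfl/fl:Cd4-Cre thymocytes, and 0 differed between the mutants. Depth limits what the low members can show. Estimated depth was lowest in Bcl11bm/m replicate 1 (2510000 fragments), which also held the fewest fragments of a member (4.73, Cenpk). The intervals of the direct comparison, with a median width of 2.24 on the log2 scale, leave differences of either sign possible for 48 of 54 genes.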
